A study of Salmo salar with 12 samples.

Results

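The cluster of miR-462 and miR-731 and the hypoxia miRNA miR-210 were followed in small RNA libraries of adherent cells from the distal intestine and the head kidney of Atlantic salmon. The members were the mature miRNAs whose names are ssa-miR-462, ssa-miR-731 or ssa-miR-210, with or without a letter, and an arm (5p or 3p). They made up 7 of the 361 miRNAs in the count table, namely ssa-miR-462a-5p, ssa-miR-462a-3p, ssa-miR-462b-5p, ssa-miR-462b-3p, ssa-miR-731-5p, ssa-miR-210-5p and ssa-miR-210-3p, while miR-731-3p was not analysed here. All 7 had a count in at least 1 library, as did 180 miRNAs of the table, and 5 of the 7 were among the 76 miRNAs that passed the filter on low counts and could be tested.

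miR-462 and miR-731 are made from a single primary transcript in teleost fish, and they are regarded as the fish counterparts of mammalian miR-191 and miR-425. In zebrafish the cluster is induced by hypoxia through Hif-1α, and in rainbow trout it responds to virus infection and interferon. miR-210 is the best known hypoxia-induced miRNA of mammals, where it is a direct target of HIF and dampens mitochondrial respiration. Macrophages work in tissues with little oxygen, and HIF is known to shape their metabolism. The comparison of adherent intestinal cells (AIC) with adherent head kidney cells (AKC) therefore allows 3 questions: whether the cluster differs between the cells, whether miR-462 and miR-731 vary together, and whether miR-210 follows them.

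The study isolated leukocytes from post-smolt Atlantic salmon, let them adhere to dishes for 2 days at 12 °C and sequenced small RNA of the cells that stayed attached. AIC came from the distal intestine and AKC, the reference cell type, from the head kidney, the blood-forming organ of fish. Neither group was given a stimulus, an inhibitor or a low-oxygen treatment in the labels, and no strain, sex or genotype was given. Each group had 6 libraries, called biological replicates in the methods, where sampling of 6 fish is stated. Whole adherent pools were sequenced, not sorted macrophages, so fewer cells of a type and less RNA per cell cannot be told apart.

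The libraries held 2253241 to 11804738 counts in AIC and 5791812 to 19586480 counts in AKC, and no pair of libraries had identical counts (0 pairs). Levels are given as CPM, counts scaled to a library of 1000000 after TMM adjustment, and a floor of 3 counts corresponded to 0.105 to 1.59 CPM. Marker miRNAs of epithelium (miR-192, miR-194, miR-200, miR-141, miR-429 and miR-375) summed to 249267 to 478126 CPM in AIC and to 58.5 to 245 CPM in AKC, and 5 of their 5 tested rows were higher in AIC. Nearly all of the AIC sum was miR-375-3p, with a mean of 333296 CPM. The other tested rows had AIC means from 767 CPM (miR-194a-5p) to 3943 CPM (miR-200a-3p), and miR-141 had no counts. The leukocyte markers miR-142, miR-150 and miR-223 had 2 of 3 rows counted and summed to 2409 to 29752 CPM in AIC and 8088 to 22194 CPM in AKC. Nearly all of both sums was miR-150-5p, with means of 11239 and 15179 CPM. The other counted row, miR-142a-5p, had a mean of 6.43 CPM in AIC and 0 in AKC. No row was named miR-223, which was not analysed here, and 0 of 2 rows of the erythroid markers (miR-144) were counted. The endothelial markers (miR-126) reached at most 190 CPM in AIC and 68.9 CPM in AKC, and the stromal and muscle markers at most 34.2 and 55.1 CPM. The part of these other cells in the results for the cluster and miR-210 was not tested.

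Of the 3 leading miRNAs of the cluster, miR-462b-5p and miR-731-5p were lower in AIC than in AKC, with log2 fold changes of −1.40 and −1.16. The difference of miR-462a-5p had the same sign but did not pass the test, and miR-210-5p had the opposite sign, was higher in 5 of 6 AIC libraries than in any AKC library and did not pass either. A miRNA was called where edgeR's quasi-likelihood test gave a Benjamini-Hochberg adjusted p below 0.05 and the log2 fold change was at least 1 in size. By this rule 2 of the 5 tested members were called, both lower in AIC (0 of 5 were higher). Over all tested miRNAs 20 of 76 (26.3%) were called, 13 higher in AIC (17.1%) and 7 lower (9.21%). With so few members tested, their share of calls cannot be told apart from that of all miRNAs.

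miR-462a-5p, a miRNA linked in salmon head kidney to the differentiation of monocytes into macrophages, had the lowest spread between libraries of the tested 5p members. Its level was lowest at 3630 CPM, 4726 CPM at the median and highest at 5467 CPM in AIC, and 3657, 6381 and 8509 CPM in AKC. All 6 AIC libraries lay below the AKC median, but only 1 of 6 lay below every AKC library, because AKC5 was as low as the lowest AIC library. The means were 4619 ± 715 and 6289 ± 1839 CPM (SD, n = 6), and the log2 fold change was −0.45 (SE 0.25, 95% interval −0.99 to 0.10, edgeR Benjamini-Hochberg adjusted p = 0.205). It stood at rank 13 of all miRNAs in AIC and rank 10 in AKC. The call turned on the scaling: with total counts the difference was −1.23 (edgeR adjusted p = 0.00512) and when scaled by mapped reads −1.67 (edgeR adjusted p = 0.000952), both past the threshold.

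miR-462b-5p, the product of a second miR-462 gene, showed the larger difference. Its level was 1027 CPM in the lowest, 1779 in the median and 2495 in the highest AIC library, and 2107, 3848 and 7838 CPM in AKC. The high AKC libraries were AKC1 (7838 CPM), AKC2 (7425 CPM) and AKC6 (4804 CPM), and 4 of 6 AIC libraries lay below all AKC libraries, so the groups overlapped only at AIC1 and AIC2. The fitted level was 2.65-fold higher in AKC, a log2 fold change of −1.40 (SE 0.38, 95% interval −2.21 to −0.60, edgeR Benjamini-Hochberg adjusted p = 0.00904). The call was kept in 8 of 8 other settings of scaling, filter, test and pairing, where the change ranged from −2.73 to −1.29, and in 12 of 12 fits that left out a library (−1.64 to −1.24). Of these settings, the filter of at least 10 counts in 6 libraries kept the same 76 rows and only repeated the main fit. miR-462a and miR-462b are close paralogs, and reads that match both could have been counted on either or on both. The division of reads between them is therefore uncertain. Among other paralogs, miR-194b-3p and miR-194c-3p had the same count in every library. Reads counted on both rows would enter the ratio, the correlation and the summed share of miR-462a-5p and miR-462b-5p, which was not tested.

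miR-731-5p, the partner of miR-462 in the teleost cluster, had the highest level of the members in AKC, where it stood at rank 9 of all miRNAs (rank 16 in AIC). It was at 1416 CPM in the lowest, 3266 in the median and 6244 in the highest AIC library, against 4531, 8268 and 10623 CPM in AKC. AIC2 (1531 CPM) and AIC3 (1416 CPM) were the low libraries, while AIC5 (6244 CPM) and AIC6 (5473 CPM) reached the range of AKC, which began with AKC4 (4531 CPM) and AKC3 (6067 CPM). The fitted level was 2.24-fold higher in AKC (log2 fold change −1.16, SE 0.38, 95% interval −1.98 to −0.34, edgeR Benjamini-Hochberg adjusted p = 0.0340). This call was fragile. It was lost with DESeq2's size factors (edgeR adjusted p = 0.0564), without the 5 most abundant miRNAs in the library size (0.0577) and without a filter on low counts (0.0702). When libraries were left out and the filter was rerun, it remained only without AIC5 (−1.67) or without AKC5 (−1.18), and the change without any of the other 10 libraries lay between −1.39 and −0.84. With the 76 tested rows kept, it remained in 4 of 12 such fits, those without AIC5, AKC3, AKC4 or AKC5.

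**Figure D1:**
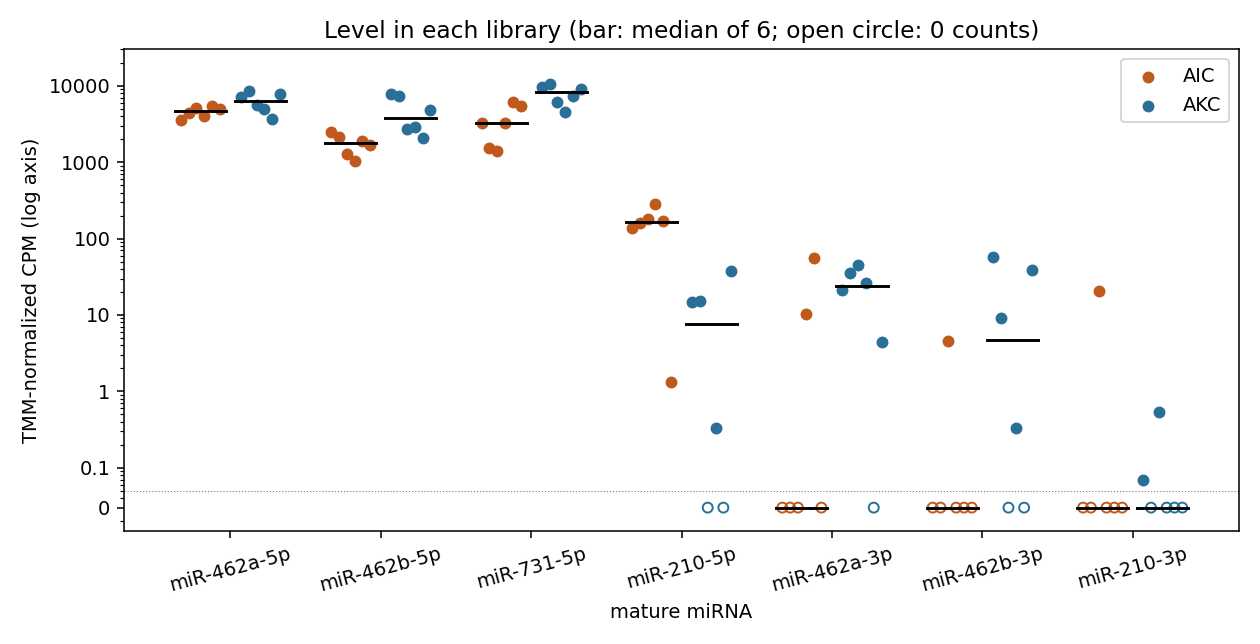
Level of the 7 members in each library (y axis, TMM-normalized CPM on a log axis, with open circles at the bottom for 0 counts), with points for libraries and a bar for the group median, AIC and AKC side by side. The 5p arms of miR-462a, miR-462b and miR-731 lie above 1000 CPM in all libraries, miR-210-5p has an AIC median of 164 CPM against 7.60 CPM in AKC, and the 3p arms lie at or near 0 in many libraries.

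Scaling mattered for the size of these differences. The median log2 fold change of all 76 tested miRNAs was 0.09 with TMM, −0.65 with total counts and −1.18 with mapped reads, so the members are to be read against those medians. With total counts 29 of 76 miRNAs were called (38.2%), 9 higher and 20 lower in AIC, and with mapped reads 33 of 76 (43.4%), 9 higher and 24 lower. DESeq2's Wald test, the tool of the study, called 33 of 76 (43.4%), 17 higher and 16 lower. Rows to which it gave no adjusted p, miR-462a-3p among them, were counted as not called. In each of these 3 settings 3 of the 5 tested members were called, but not the same 3. With total counts and with mapped reads they were miR-462a-5p, miR-462b-5p and miR-731-5p. With DESeq2's Wald test they were miR-462b-5p and miR-731-5p, lower in AIC, and miR-210-5p, higher in AIC (3.83). That test did not call miR-462a-5p (DESeq2 adjusted p = 0.130). miR-462a-5p, miR-462b-5p and miR-731-5p kept their negative sign in every fit.

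**Figure D2:**
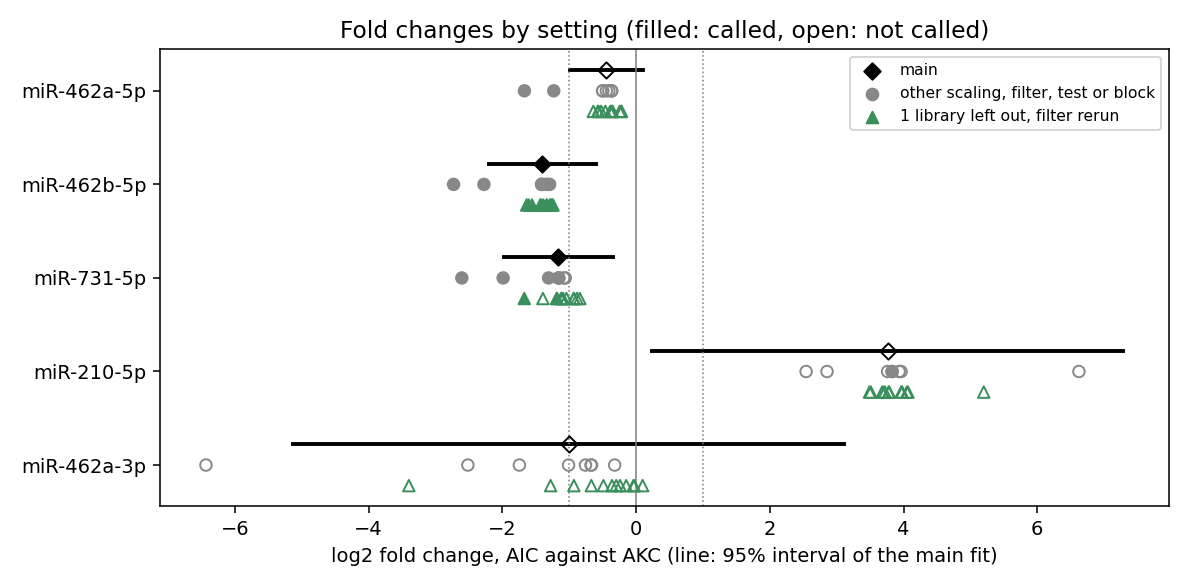
Log2 fold change of the 5 tested members (x axis, AIC against AKC, negative values lower in AIC) with its 95% interval, as reported here (diamonds), under other settings (circles) and with 1 library left out (triangles), filled where the miRNA was called. miR-462b-5p is filled throughout, miR-731-5p in some settings, and the interval of miR-462a-3p spans −5.13 to 3.11.

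As a level that needs no model, the 3 leading 5p members together held 0.496% of all counts in the lowest, 0.644% in the median and 1.22% in the highest AIC library. The AKC libraries held 1.31%, 2.58% and 3.60%. The groups did not overlap, and the means were 0.765 ± 0.314% and 2.57 ± 0.892% (SD, n = 6; exact permutation test, two-sided, p = 0.00216, the smallest that 6 against 6 allows). On the same scale, the percent of total counts, 23 of the 76 tested miRNAs (30.3%) did not overlap between the groups, among them 2 of the 5 tested members, miR-462a-5p (at most 0.502% in AIC and at least 0.529% in AKC) and miR-462b-5p (0.166% and 0.305%). On TMM-normalized CPM, 20 of 76 (26.3%) did not overlap, and none of the 5 tested members (0) was among them. The share depends on all other miRNAs of the library, the epithelial markers given above included. Within these 3 miRNAs, miR-462a-5p made up 48.1 ± 10.5% in AIC and 34.0 ± 5.14% in AKC, miR-462b-5p 18.2 ± 6.47% and 23.3 ± 5.75%, and miR-731-5p 33.7 ± 12.4% and 42.7 ± 6.83% (SD, n = 6).

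Ratios of 2 counts in the same library do not depend on library size where both counts are well above 0. They tell how far the cluster members moved apart. For the tests 0.5 was added to each count, so a tested ratio with a 0 count also depends on depth. There were 6 ratios tested, with Benjamini-Hochberg adjustment over the 6. Positions of the salmon genes were not analysed here, so whether miR-731 shares its transcript with miR-462a, miR-462b or both is not known from these data. The ratio of miR-731-5p to miR-462a-5p was 0.275 in the lowest, 0.857 in the median and 1.14 in the highest AIC library and 0.901, 1.22 and 2.00 in AKC. AIC2 (0.346) and AIC3 (0.275) were far below the rest, while AIC1, AIC5 and AIC6 lay within the range of AKC. The mean log2 ratio was lower in AIC, with a difference of −0.92 (95% interval −1.79 to −0.09, exact permutation test, two-sided, p = 0.0260, adjusted p = 0.0390). Without AKC1, AKC2, AKC5 or AKC6 the exact permutation p rose to 0.0649, 0.0628, 0.0801 and 0.0628, and over all libraries left out the difference ranged from −1.07 to −0.66.

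The ratio of miR-462b-5p to miR-462a-5p was 0.252, 0.339 and 0.687 in AIC (lowest, median and highest library) and 0.487, 0.597 and 1.09 in AKC. In 5 of 6 AIC libraries it was below all AKC libraries, with AIC1 (0.687) as the exception. The difference of the mean log2 ratios was −0.88 (95% interval −1.52 to −0.23, exact permutation test, two-sided, p = 0.0173, adjusted p = 0.0346), and it stayed below p of 0.05 without any single library. The ratio of miR-731-5p to miR-462b-5p was 0.723, 2.24 and 3.30 in AIC and 1.24, 1.74 and 3.47 in AKC. AIC1, AIC2 and AIC3 lay at 0.723 to 1.32 and AIC4, AIC5 and AIC6 at 3.16 to 3.30, so that the AIC libraries stood at both ends of the AKC range. The difference between the groups was −0.03 (95% interval −1.07 to 1.06, exact permutation test, two-sided, p = 0.946). The interval leaves room for a change of either sign of about 1 on the log2 scale.

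**Figure D3:**
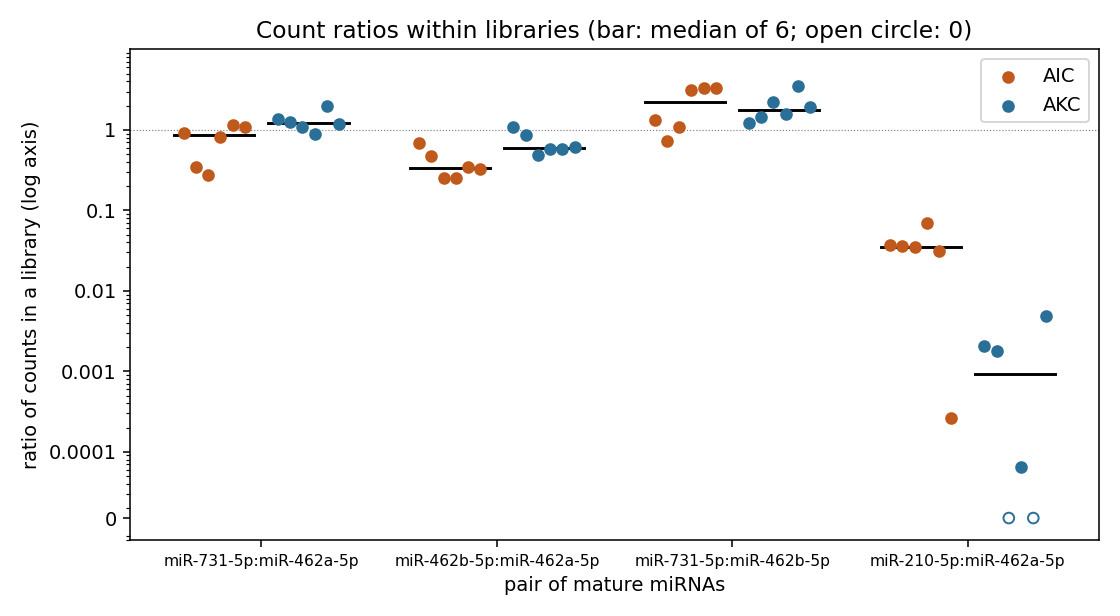
Ratios between members in each library (y axis, ratio of counts on a log scale), AIC and AKC side by side, with a bar for the group median. AIC lies lower for miR-731-5p to miR-462a-5p (medians 0.857 and 1.22) and for miR-462b-5p to miR-462a-5p (0.339 and 0.597), and the ratio of miR-210-5p to miR-462a-5p lies higher in all AIC libraries but AIC6 than in AKC.

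Among the AIC libraries, no relation of miR-731-5p with miR-462a-5p was detectable with 6 libraries. The SD of log2 CPM in AIC was 0.23 for miR-462a-5p, 0.47 for miR-462b-5p and 0.90 for miR-731-5p, and the SD of the log2 ratio of miR-731-5p to miR-462a-5p was 0.88, close to that of miR-731-5p alone. The correlation over the 6 AIC libraries was r = 0.18 (exact permutation p = 0.719) and rho = 0.20 (exact permutation p = 0.714). Without AIC1 and AIC4, the libraries farthest from the median of miR-462a-5p, r was 0.60 (n = 4). The sign of r depended on the scaling, with a range of −0.47 to 0.64.

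Among the AKC libraries the members had higher correlations. The SD of log2 CPM was 0.46 for miR-462a-5p, 0.80 for miR-462b-5p and 0.47 for miR-731-5p, and 0.38 for the ratio of miR-731-5p to miR-462a-5p. For miR-731-5p and miR-462a-5p, r was 0.66 (exact permutation p = 0.165) and rho 0.77 (exact permutation p = 0.103), and without AKC5 and AKC2 r was 0.97 (n = 4). AKC5 had the lowest miR-462a-5p level and the highest ratio of the pair (2.00), and without it alone r was 0.97 (unadjusted exact permutation p = 0.0167). Leaving out the library that departs most from a pair raises r by construction, so this value is no support for a relation. Without any other single AKC library r was 0.53 to 0.72, and none of those fits passed the unadjusted test. Other scalings gave 0.37 to 0.86 for this pair. For miR-462b-5p and miR-462a-5p, r was 0.89 (exact permutation p = 0.0264, rho = 0.77, exact permutation p = 0.103), and for miR-731-5p and miR-462b-5p 0.76 (exact permutation p = 0.0917, rho = 0.71, exact permutation p = 0.136). Without the 2 libraries farthest from the median, these were 0.80 and 0.46. Other scalings gave 0.65 to 0.97 for miR-462b-5p and miR-462a-5p and 0.42 to 0.84 for miR-731-5p and miR-462b-5p. None of the 12 correlations between members passed after Benjamini-Hochberg adjustment (lowest adjusted p = 0.233 for r and 0.317 for rho, permutation tests), and the difference between AIC and AKC in these correlations was not tested.

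The other pairs of cluster members in AIC had r of −0.17 (miR-462b-5p and miR-462a-5p, rho −0.26, exact permutation p of 0.735 and 0.658) and 0.12 (miR-731-5p and miR-462b-5p, rho 0.26, exact permutation p of 0.800 and 0.658). Without the 2 farthest libraries they were −0.45 and 0.24. Other scalings gave 0.30 to 0.52 for the first pair and −0.71 to 0.50 for the second. No relation between the cluster members in AIC was detectable with 6 libraries.

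**Figure D4:**
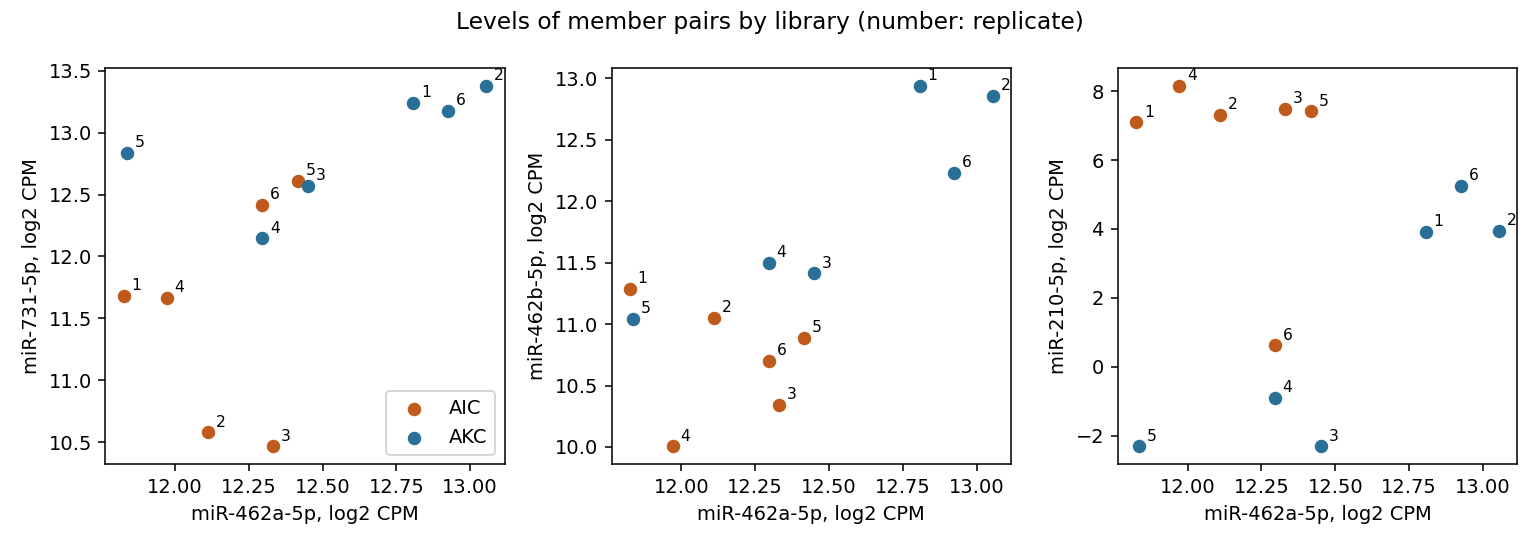
Level of miR-731-5p, miR-462b-5p and miR-210-5p (y axes of the 3 panels, log2 CPM) against miR-462a-5p (x axis, log2 CPM), with a point for each library labelled by its replicate number, AIC and AKC in different colours. Beside miR-462a-5p, r of miR-731-5p was 0.18 in AIC and 0.66 in AKC and that of miR-462b-5p −0.17 and 0.89, and for miR-210-5p the AIC libraries apart from AIC6 lie together at high levels while AKC splits into 3 libraries with and 3 with almost no counts.

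miR-210-5p went the other way from the cluster between the groups. Its counts in AIC1 to AIC6 were 257, 653, 1130, 2040, 359 and 3, and in AKC1 to AKC6 they were 425, 260, 0, 2, 0 and 621. As CPM this was 1.33 in the lowest, 164 in the median and 283 in the highest AIC library and 0, 7.60 and 37.9 in AKC. AIC6 was at the floor of 3 counts while the other 5 of 6 AIC libraries lay above all AKC libraries. The means were 155 ± 90.8 and 11.4 ± 14.9 CPM (SD, n = 6), with a log2 fold change of 3.76 (SE 1.65, 95% interval 0.24 to 7.28), an unadjusted p of 0.0380 in edgeR and a Benjamini-Hochberg adjusted p of 0.0961, so it was not called.

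DESeq2's Wald test called miR-210-5p (log2 fold change 3.83, adjusted p = 0.0151), edgeR under its other settings did not (2.54 to 6.62), nor did it in any of 12 fits without a library (3.49 to 5.20, edgeR adjusted p 0.0599 to 0.169). The study, which used DESeq2, listed miR-210-5p as upregulated and miR-731-5p as downregulated in AIC. DESeq2's Wald test called miR-731-5p here as well (adjusted p = 0.0277). In AKC, miR-210-5p was above the floor in AKC1, AKC2 and AKC6, which also had the 3 largest totals of that group (12685885 to 19586480 counts against at most 10062445). The same 3 libraries were the highest of AKC for miR-462a-5p, miR-462b-5p and miR-731-5p. This was not particular to the cluster, because miR-150-5p and miR-23b-3p were also highest in these 3, though let-7a-5p was highest in AKC4. The part of depth and of PCR in these low counts was not tested.

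The ratios of miR-210-5p to the cluster were also higher in AIC. Its ratio to miR-462a-5p was 0.000265, 0.0352 and 0.0706 in AIC (lowest, median and highest library) and 0, 0.000926 and 0.00487 in AKC (p = 0.0108 by a two-sided exact permutation test, adjusted p = 0.0325). Its ratio to miR-731-5p was 0.000244, 0.0644 and 0.126 in AIC and 0, 0.000752 and 0.00410 in AKC (p = 0.00866 by a two-sided exact permutation test, adjusted p = 0.0325). Of the AIC libraries, 5 of 6 lay above all AKC libraries in both ratios, as in CPM. Both organs were sampled from 6 fish, but whether libraries with the same number came from the same fish is not stated. With libraries matched by number, an exact sign-flip permutation test gave p = 0.0625 for both ratios, above the threshold of 0.05.

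Within AIC, r of miR-210-5p was −0.29 with miR-462a-5p, −0.11 with miR-462b-5p and −0.45 with miR-731-5p (exact permutation p of 0.721, 0.815 and 0.576, rho 0.14, −0.66 and −0.43 with exact permutation p of 0.803, 0.175 and 0.419). Without the 2 farthest libraries r was −0.02, 0.07 and −0.46. These values rested on AIC6, without which r with miR-462b-5p was −0.92 and with miR-731-5p 0.09. Within AKC, r was 0.88 with miR-462a-5p, 0.89 with miR-462b-5p and 0.78 with miR-731-5p (exact permutation p of 0.0417, 0.0667 and 0.0972, rho 0.84, 0.75 and 0.64 with exact permutation p of 0.0444, 0.106 and 0.200). Without the 2 farthest libraries r was 0.93, 0.95 and 0.87. Other scalings gave 0.65 to 0.91 with miR-462a-5p, 0.84 to 0.87 with miR-462b-5p and 0.32 to 0.66 with miR-731-5p. The AKC values came from 3 libraries with counts and 3 with at most 2 counts, and none passed after Benjamini-Hochberg adjustment (adjusted permutation p = 0.233).

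The passenger arms of the cluster were rare. miR-462a-3p had 75 counts in AIC4, 118 in AIC5 and 0 in the other AIC libraries, and 607, 615, 599, 161, 0 and 73 counts in AKC1 to AKC6. The groups overlapped, with medians of 0 and 23.8 CPM and a log2 fold change of −1.01 (SE 1.93, 95% interval −5.13 to 3.11, edgeR Benjamini-Hochberg adjusted p = 0.746), too wide to place a difference. Of the summed counts of both arms, the 3p arm held 0.176% in AIC and 0.323% in AKC for miR-462a, and 0.0787% and 0.471% for miR-462b. Single libraries set these shares: without AIC5 the share of miR-462a-3p in AIC was 0.0765%, without AKC1 that of miR-462b-3p in AKC was 0.275%, and all counts of miR-462b-3p in AIC came from AIC3. The log2 ratio of miR-462a-5p to miR-462a-3p was 2.72 higher in AIC (95% interval −2.02 to 7.44, exact permutation test, two-sided, p = 0.229, adjusted p = 0.275). Libraries with 0 counts of miR-462a-3p entered this ratio through the 0.5 added to each count.

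miR-462b-3p was too rare to be tested. It had 29 counts in AIC3 and 0 in the other AIC libraries, and 1630, 156, 0, 2, 0 and 638 counts in AKC1 to AKC6. AKC1, AKC2 and AKC6 were thus the libraries with counts of both miR-462b-3p and miR-210-5p above the floor. miR-210-3p, also not tested, had 129 counts in AIC3, 0 in the other AIC libraries, and 2 counts in AKC1 and 7 in AKC3. It held 2.82% of the counts of both miR-210 arms in AIC (129 against 4442) and 0.683% in AKC (9 against 1308). These shares too rested on few libraries, with 5.10% in AIC without AIC4, none without AIC3, and in AKC 0.153% without AKC3 and 1.29% without AKC6. In mammals the 3p arm is the main product of miR-210, whereas here nearly all counts were on the 5p arm.

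Other miRNAs reported as hypoxia-responsive in mammals (the families miR-23, miR-24, miR-26, miR-27, miR-103, miR-107 and miR-181) had 23 rows, of which 17 were counted and 9 tested. Of these 9, 1 was called higher and 1 lower in AIC (22.2%, near the 26.3% of all tested miRNAs). With TMM the log2 fold change was positive for 6 and negative for 3, and their median log2 fold change was 0.47 beside 0.09 over all tested miRNAs. The signs depended on the scaling: with mapped reads miR-103-3p, miR-24b-3p and miR-26a-5p turned negative (−0.95, −0.32 and −1.03). Summed over the families, the median level was lower in AIC (15235 CPM) than in AKC (24908 CPM). Most of both sums was miR-181a-5p, with means of 11816 CPM in AIC and 20659 CPM in AKC. The sums are therefore not a level shared by the families. miR-23b-3p was at 2423 ± 510 CPM in AIC and 923 ± 550 CPM in AKC (SD, n = 6), a log2 fold change of 1.39 (SE 0.41, edgeR Benjamini-Hochberg adjusted p = 0.0164), which shrank to 0.48 with total counts (edgeR adjusted p = 0.418) and to 0.04 with mapped reads (edgeR adjusted p = 0.954). miR-181c-5p, of a family known from lymphocyte development, was at 837 ± 353 and 2560 ± 607 CPM (SD, n = 6), a log2 fold change of −1.61 (SE 0.35, edgeR Benjamini-Hochberg adjusted p = 0.00216), and was called under every scaling.

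The most abundant row of each other family did not pass. miR-181a-5p was at 11816 ± 5895 and 20659 ± 5920 CPM (SD, n = 6), with a log2 fold change of −0.81 (edgeR Benjamini-Hochberg adjusted p = 0.0697), which passed with total counts (−1.63), with DESeq2's size factors (−1.04) and with mapped reads (−1.97). miR-24b-3p had a log2 fold change of 0.96, miR-26a-5p of 0.03 and miR-103-3p of 0.47 (edgeR Benjamini-Hochberg adjusted p = 0.632, 0.984 and 0.770). miR-27a-5p (4.05 and 5.72 CPM in AIC and AKC) and miR-107-3p (6.41 and 10.1 CPM) did not pass the filter. No row was named miR-191 or miR-425 (0 rows), the mammalian counterparts of the cluster.

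The miRNAs whose levels were most like those of the members were looked up over the 12 libraries after each group's mean log2 CPM was subtracted, among the 75 other tested miRNAs, as a description. For miR-462a-5p these were miR-16c-5p (r = 0.75), let-7h-5p (0.61) and miR-103-3p (0.61), and miR-462b-5p came second (0.65), miR-210-5p at rank 10 (0.53) and miR-731-5p at rank 22 (0.34). The order of these last 2 turned with total counts, where r with miR-462a-5p was 0.57 for miR-731-5p (rank 15) and 0.23 for miR-210-5p (rank 47), and miR-103-3p fell to rank 30 (0.35). For miR-731-5p they were miR-125b-5p (0.75), miR-128-2-5p (0.59) and miR-19d-5p (0.54), with miR-462b-5p at rank 15 (0.36) and miR-462a-5p at rank 17 (0.34), which rose to rank 7 (0.57) with total counts, while miR-128-2-5p fell to rank 15 (0.50). For miR-210-5p they were miR-33b-3p (0.72), miR-23b-3p (0.64) and miR-146a-5p (0.60), with miR-462b-5p at rank 7 (0.56), miR-462a-5p at rank 11 (0.53) and miR-731-5p at rank 48 (0.03). With total counts miR-23b-3p was at rank 7 (0.47), miR-462b-5p at rank 11 (0.43), miR-462a-5p at rank 28 (0.23) and miR-731-5p at rank 49 (−0.07). The libraries share depth and scaling, which enter all of these values. Some of the named rows were also at or near 0 in several libraries. miR-33b-3p had 0 counts in AIC5, AIC6, AKC3, AKC4 and AKC5, and miR-128-2-5p had 0 in AIC1, AIC2, AIC3 and AKC5. miR-16c-5p had 1, 0 and 11 counts in AIC1, AIC2 and AIC4 and 8, 13 and 7 in AKC3, AKC4 and AKC5. In AIC1 to AIC6 miR-19d-5p had 0, 0, 0, 0, 2 and 1 counts. Low counts enter the r of these rows and of miR-210-5p.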

How the data were processed

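Small RNA was sequenced in 6 AIC and 6 AKC libraries, each made from 50 ng RNA with 25 PCR cycles. The authors trimmed adapters (Cutadapt), removed low-quality reads (FASTX-Toolkit), mapped to ICSASG_v2 and counted miRBase miRNAs of salmon with miRDeep2. What the authors deposited are estimated counts for each mature miRNA, without scaling for depth, and these were rounded to whole numbers here. Counts come from PCR products and floors cover counting error only.

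Using R 4.3.3, edgeR 4.0.16 (limma 3.58.1), DESeq2 1.42.0, Python 3.11.15, SciPy 1.17.1, NumPy 2.4.6, pandas 2.3.3 and Matplotlib 3.10.9, filterByExpr (minimum count 10), TMM and the quasi-likelihood test with Benjamini-Hochberg adjustment were applied to all 361 rows, with thresholds of 0.05 and a log2 fold change of 1. Log2 CPM used a prior count of 2. Ratios had 0.5 added to each count for tests. Ratios and shares were tested by two-sided exact permutation of the group labels (924 arrangements). Intervals are at 95%. The fit was tested on simulated data. Where nothing says that the libraries came from separate cultures, p-values measure only the spread between these libraries.

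Alternatives were other library sizes (including the mapped reads of the study's read table), filters, DESeq2, the replicate number as a block and leaving out each library. Fits without a library that kept the 76 tested rows were added after seeing the data. The members, the lists and the rule for named miRNAs (all members, the 3 tested miRNAs most like each leading member, called rows of the hypoxia families and the most abundant row of each) were chosen with earlier results of these data known. The mRNA libraries were not analysed here.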

Additional observations from a re-analysis of the deposited data

Results flagged for a closer look

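Of 28 groups of 6 libraries examined (the 7 members, the ratios and the share, in each cell type), 6 held a library far from the others. The rule was set so that chance gives about 5% of groups. That rate does not hold for rows that are mostly at 0 or for ratios that share a count. The number of groups found is therefore not to be read against it. Their causes were not tested. In AIC, miR-210-3p was at 20.4 CPM in AIC3 and at 0 in the other libraries, and miR-462b-3p was at 4.58 CPM in AIC3 and at 0 in the others. miR-462a-3p was at 56.0 CPM in AIC5 and at 0 to 10.4 CPM in the other AIC libraries. In AIC6 the log2 ratio of miR-210-5p to miR-462a-5p was −11.66 and that to miR-731-5p was −11.78, while they were at most −3.82 and −2.99 in the other AIC libraries, both from the 3 counts of miR-210-5p in that library. In AKC3 miR-210-3p was at 0.529 CPM, which is 7 counts, against 0 to 0.0700 CPM in the other AKC libraries.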

How the results depend on the processing

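The number of called miRNAs (20 of 76) rose to 33 of 76 with mapped reads and with DESeq2. It was 41 of 180 without a filter and lay between 17 and 23 without single libraries. The 2 called members of 5 fell to 1 of 5 with DESeq2's size factors and without the 5 most abundant miRNAs, where 21 and 20 of 76 miRNAs were called. Without a filter 1 of 7 members was called, and without single libraries 1 to 2 of 5. With the replicate block 22 of 76 miRNAs and 2 of 5 members were called, and miR-731-5p was at −1.31. Same-numbered libraries did not deviate together (mean same-number correlation −0.00143, range −0.12 to 0.07). For miR-731-5p and miR-462a-5p the ratio ranged from −1.07 to −0.66 without single libraries. Their AKC correlation ranged from 0.37 to 0.86 over the other scalings. It passed an unadjusted exact permutation test with total counts (0.79) and mapped reads (0.86). Without single libraries it was 0.53 to 0.97. The AIC correlation of this pair was −0.47 with mapped reads and −0.19 to 0.54 without single libraries. Other AIC correlations changed sign: miR-462b-5p with miR-462a-5p to 0.52 (DESeq2 size factors), 0.47 (total counts) and 0.30 (mapped reads), miR-731-5p with miR-462b-5p to −0.71 and miR-210-5p with miR-462a-5p to 0.17 (mapped reads), and miR-210-5p with miR-462b-5p to 0.0153 (DESeq2 size factors), 0.14 (mapped reads) and 0.0731 (without the 2 farthest libraries). The causes were not tested. Without single libraries these ranged from −0.75 to 0.44 (miR-462b-5p with miR-462a-5p), −0.16 to 0.39 (miR-731-5p with miR-462b-5p), −0.92 to 0.19 (miR-210-5p with miR-462b-5p) and −0.686 to 0.0911 (miR-210-5p with miR-731-5p). The log2 ratio of miR-731-5p to miR-462b-5p ranged from −0.21 to 0.23 and the log2 fold change of miR-462a-3p from −3.40 to 0.10. Beside the ratios of miR-210-5p given above, the pairing changed no other unadjusted call among the ratios and the share. Low counts limit miR-210-5p in AKC and all 3p arms, and reads shared by miR-462a and miR-462b limit their separation.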
